A study of Mus musculus with 6 samples.

Results

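The genes of glycolysis and of the hypoxia response were followed in mouse bone marrow cultures that gave rise to 1 dendritic cell population and 2 macrophage populations. The set held 35 genes, chosen by symbol: 22 of the glycolytic route (4 glucose or lactate transporters, 16 enzymes and 2 enzymes that set the rate of the phosphofructokinase step), 11 further targets of hypoxia-inducible factor (HIF), and 2 HIF alpha subunits. A gene was measured by a probe set that the array annotation assigned to it alone, and by the one with the highest mean over the 6 arrays where there were several. By this rule 33 of the 35 genes were measured, of 19938 genes in all. Gpi1 and Eno1 were not analysed here, because no probe set of theirs met the rule.

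The donors were C57BL/6J mice, 6 to 10 weeks old and male by their labels, and their bone marrow was cultured for 7 days. With 25 ng/ml of granulocyte-macrophage colony-stimulating factor (GM-CSF), the cells sorted as MHCII high and F4/80 low were named GM-BMDC (dendritic cells), and those sorted as MHCII low and F4/80 high were named GM-BMM (macrophages). With 20% L cell conditioned medium, which supplied macrophage colony-stimulating factor (M-CSF), the CD11b+ F4/80+ cells were named M-BMM. Each of the 3 groups had 2 arrays labelled as biological replicates, and 300 ng of total RNA went into each. The labels do not say how many animals or cultures stood behind a replicate, so the p-values below measure the spread between arrays, which may be partly technical. GM-BMM and M-BMM differed in growth factor, medium supplement and gate together, and these cannot be told apart.

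Glycolysis converts glucose to pyruvate in the cytosol, and lactate dehydrogenase turns pyruvate into lactate, which leaves the cell through monocarboxylate transporters. The HIF alpha subunits are hydroxylated by prolyl hydroxylases when oxygen is plentiful, then bound by the Vhl protein and degraded. When oxygen is scarce they accumulate, enter the nucleus and bind short DNA elements with the core ACGTG or GCGTG near genes for glucose transport, glycolysis, blood vessel growth and mitochondrial removal. In macrophages, inflammatory activation is known to raise glycolysis and HIF activity without a lack of oxygen. This control acts largely on the protein, which arrays of RNA do not measure.

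The values are log2 signals made by robust multi-array averaging (RMA), and a log2 difference of 1 is a 2-fold difference in signal. The array medians lay between 6.18 and 6.28, and no member fell below 5.04, the 25th percentile of all values, in any array. By marker genes, all 12 dendritic cell markers were higher in GM-BMDC than in GM-BMM, and 6 of 11 macrophage markers were lower. Over all genes, 4.69% were higher and 5.74% were lower in this comparison. These groups were sorted by surface proteins tied to some of the markers (MHCII to Cd74, the macrophage antigen of the gates to Adgre1). Part of the marker counts was therefore fixed by the sort, so they are not an independent check of cell type. The summed dendritic cell marker signal was 14.42 and 14.59 in the GM-BMDC arrays, 12.32 and 12.41 in GM-BMM, and 10.02 and 10.13 in M-BMM (log2). Much of the GM-BMM sum came from Cd74 (mean 11.44, against 7.65 in M-BMM) and Itgax (10.39, against 5.86). Of the 12 markers, 4 were higher and 1 was lower in GM-BMM than in M-BMM, where 3.62% and 2.57% of all genes were. The median log2 difference over the 12 was 0.20, with 5 below 0. The summed macrophage marker signal was 13.88 and 14.57 in the GM-BMDC arrays, 15.15 and 15.21 in GM-BMM, and 15.01 and 15.03 in M-BMM (log2). In 3 arrays the sex-linked genes went against the label of male mice: Xist, expressed from the inactive X chromosome, measured 11.66 and 10.68 in GM-BMDC and 11.58 in GM-BMM replicate 1, against 4.53 to 4.93 in the other arrays. Eif2s3y, on the Y chromosome, was near background in the first replicate of GM-BMDC (3.94) and of GM-BMM (3.66) and lay at 8.80 to 9.32 elsewhere, so that GM-BMDC replicate 2 carried both RNAs. Results below are therefore also given without the GM-CSF arrays numbered 1 or without those numbered 2. Neither choice removes the mismatch. Without those numbered 1, GM-BMDC replicate 2 with both RNAs stays. Without those numbered 2, the GM-CSF arrays left carried Xist (11.66 and 11.58) and both M-BMM arrays carried Eif2s3y. In the comparisons with M-BMM, sex-linked RNA and group then cannot be told apart.

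GM-BMM held the highest signals for most of the set. Both GM-BMM arrays lay above the other 4 arrays for 21 of the 33 measured members, against 9.46% of all genes. These were 12 of 20 members of the glycolytic route (Slc2a1, Slc16a1, Slc16a3, Hk2, Pfkl, Aldoa, Tpi1, Pgk1, Pgam1, Pkm, Ldha and Pfkfb4), 7 of 11 other hypoxia targets (Egln1, Egln3, Pdk1, Bnip3, Vegfa, P4ha1 and Ankrd37), and both HIF alpha subunits. This is an order of arrays, held also by members that passed no test. The members were chosen with earlier results of these data known, so the share is a description and not an independent test. Slc2a3 and Hk1 were the members with both GM-BMM arrays below the others, against 9.81% of all genes, and the second probe set of Hk1 had the opposite order. The count of members above was 24 without both GM-CSF arrays numbered 1, where 25.1% of all genes had this order, and 23 without both numbered 2, where 20% had it. In bulk RNA of a sorted population, fewer cells of a type and less RNA per cell cannot be told apart.

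Against GM-BMM, GM-BMDC had lower signals in both branches of the set. With limma and Benjamini-Hochberg adjustment over all genes at 0.05, 15 members were lower in GM-BMDC and 1 (Pfkp) was higher, together 16 of 33, where 10.4% of all genes passed (4.69% higher, 5.74% lower). The median log2 difference was -0.42 over the members and 0.02 over all genes. Of the 20 measured genes of the glycolytic route, 10 fell and 1 rose. Of the 11 other hypoxia targets, 4 fell (Egln3, Bnip3, Vegfa and P4ha1) and none rose, and Hif1a fell.

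In a fit without a given array its group has 1 array left, which is assumed to vary like the other groups. For an array of the groups compared, such a fit shows how far a call rests on that array. For an array of the third group, it changes only the shared spread and its degrees of freedom. With each array left out in turn, 9 of the 16 calls were made in every fit (Slc2a1, Hk2, Hk3, Pfkl, Hif1a, Egln3, Bnip3, Vegfa and P4ha1). Without GM-BMDC replicate 1, the calls on Slc16a3, Pfkm, Pfkp, Tpi1, Pgk1, Pgam1 and Pkm ended (adjusted p 0.0519 to 0.165), and without GM-BMM replicate 2 the calls on 6 of these 7, Tpi1 excepted, ended (0.0512 to 0.146). The calls on Pfkp and Pgam1 ended without GM-BMM replicate 1 (log2 differences 0.62 and -0.54). Those on Pfkm, Pfkp, Pgk1, Pgam1 and Pkm ended without M-BMM replicate 1 and likewise without M-BMM replicate 2. Their log2 differences were unchanged there, because M-BMM enters this comparison through the shared spread alone.

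Against M-BMM, GM-BMM had higher signals for 11 members and lower signals for 2 (Adm and Ndrg1), together 13 of 33, where 6.19% of all genes passed (3.62% higher, 2.57% lower). The median log2 difference was 0.43 over the members and -0.02 over all genes. In the glycolytic route 6 of 20 rose and none fell: Slc2a1, Slc16a3, Pfkp, Aldoc, Tpi1 and Pgk1. Among the other hypoxia targets Egln3, Bnip3, Bnip3l and Vegfa rose, and Hif1a rose as well. The calls on Slc2a1, Slc16a3, Aldoc, Egln3 and Vegfa were made with each array left out in turn. Without M-BMM replicate 2 the calls on Pfkp, Tpi1, Pgk1, Hif1a, Bnip3, Bnip3l, Adm and Ndrg1 ended (adjusted p 0.0584 to 0.258), without M-BMM replicate 1 the same list except Hif1a (0.0592 to 0.159), without GM-BMM replicate 1 Bnip3, Bnip3l and Adm (0.0687 to 0.164), and without GM-BMM replicate 2 Tpi1 (0.114).

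GM-BMDC and M-BMM, which differed in growth factor and in cell type, had a median log2 difference of -0.07 over the members and -0.00 over all genes. Here 4 members were higher in GM-BMDC (Slc16a3, Pfkp, Aldoc and Bnip3l) and 8 were lower (Hk2, Hk3, Pfkm, Egln3, Adm, P4ha1, P4ha2 and Ndrg1), together 12 of 33, where 16.7% of all genes passed (7.76% higher, 8.9% lower). The calls on Hk3, Pfkp, Aldoc and Ndrg1 were made with each array left out. Without M-BMM replicate 1 the other 8 calls ended (0.0603 to 0.191), without M-BMM replicate 2 those on Slc16a3, Hk2, Pfkm, Bnip3l, P4ha1 and P4ha2 (0.0618 to 0.161), without GM-BMDC replicate 1 those on Hk2, Pfkm, Bnip3l and P4ha2 (0.0573 to 0.142), and without GM-BMDC replicate 2 those on Bnip3l and P4ha2 (0.114 and 0.105). The 3 comparisons share arrays, so their counts are not independent of each other.

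With both GM-CSF arrays of a number left out, GM-BMDC and GM-BMM have 1 array each and the spread comes from the M-BMM arrays alone, with 1 residual degree of freedom. These fits assume that the GM-CSF groups vary like M-BMM, and say nothing about the spread within them. Calls lost or gained are therefore named, but not counted as results on the set, and log2 differences are given for those that ended. Without both arrays numbered 1, the calls on Pfkm (-0.69), Pfkp (0.44) and Pgam1 (-0.45) ended in GM-BMDC against GM-BMM. Those on Bnip3 (0.67) and Bnip3l (0.55) ended in GM-BMM against M-BMM, and that on Pfkm (-0.52) in GM-BMDC against M-BMM. Calls were gained on Slc16a1 and Pfkl in GM-BMM against M-BMM and on Pfkl and Pfkfb3 in GM-BMDC against M-BMM. Without both numbered 2, the call on Pgk1 (-0.56) ended in GM-BMDC against GM-BMM. That on Tpi1 (0.49) ended in GM-BMM against M-BMM, and that on P4ha2 (-0.41) in GM-BMDC against M-BMM. Calls were gained on Epas1, Pdk1 and Ndrg1 in GM-BMDC against GM-BMM, on Pfkfb3 in GM-BMM against M-BMM, and on Pfkl, Eno2, Pfkfb4, Pdk1 and Bnip3 in GM-BMDC against M-BMM.

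The calls rest on limma's pooling of the spread over genes. Without it, no member passed in any comparison. In GM-BMDC against GM-BMM, GM-BMM against M-BMM and GM-BMDC against M-BMM, 18, 20 and 13 of the 33 members were then under an unadjusted p of 0.05. Of all 19938 genes, 3686, 3075 and 4628 were.

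**Figure D1:**
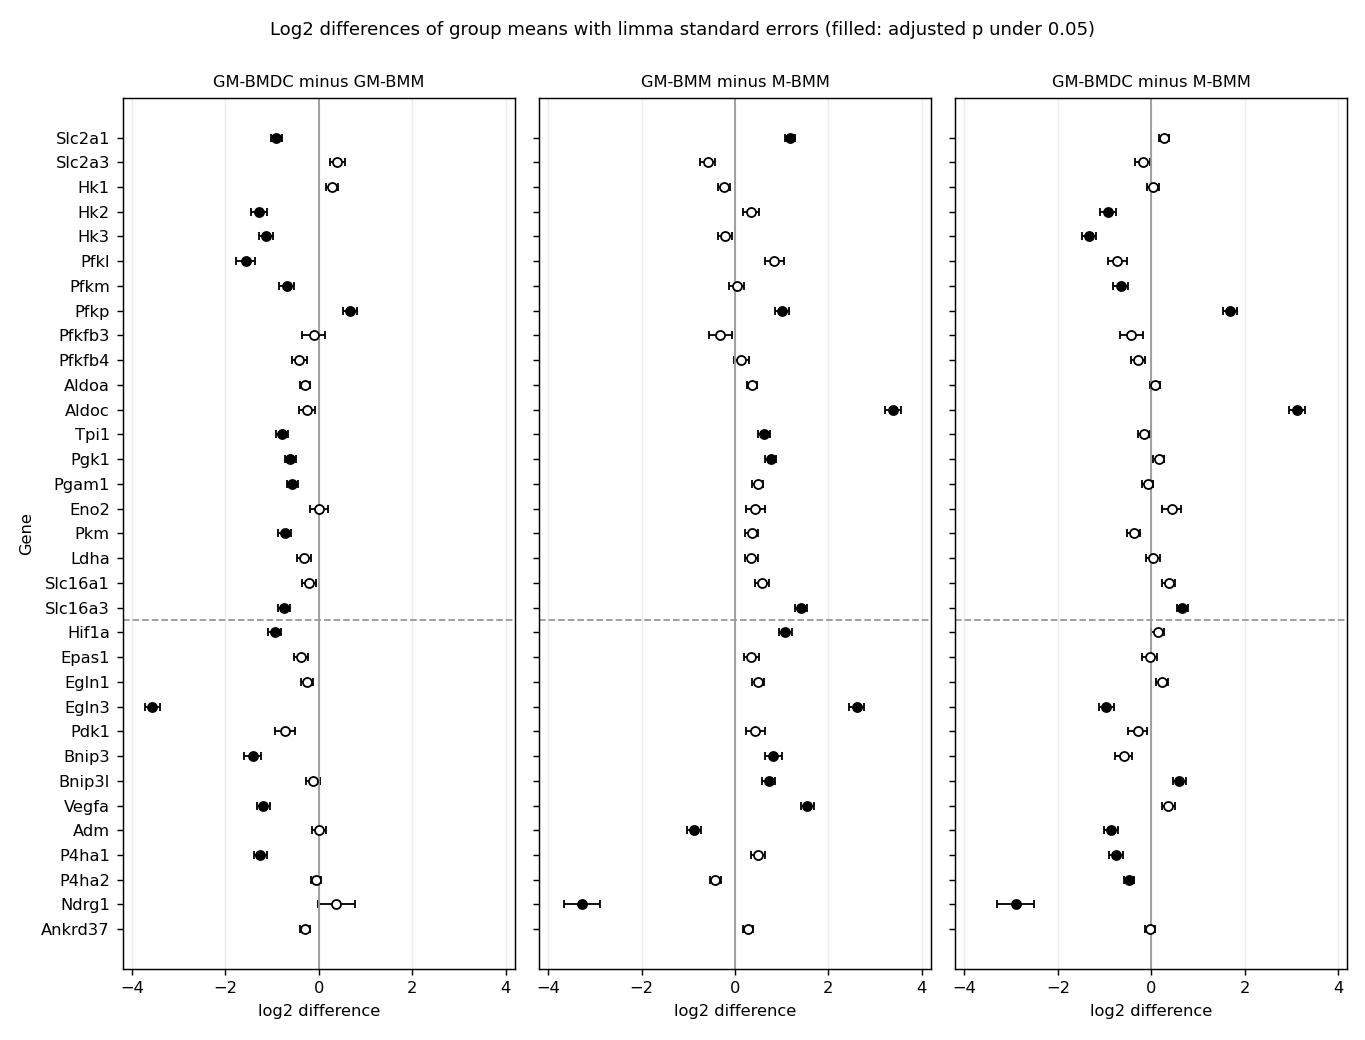
Log2 differences of group means for the 33 measured members in the 3 comparisons, with limma standard errors (bars). Filled points passed an adjusted p of 0.05, open points did not, and the dashed line separates the glycolytic route (above) from the HIF alpha subunits and other hypoxia targets (below). Most filled points lie left of 0 in the first panel and right of 0 in the second, and the 3 largest differences in size are those of Egln3, Aldoc and Ndrg1.

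The promoters of the set were read for the HIF core as a description of the set. Its members were chosen as glycolysis and hypoxia response genes, so a share above that of all genes follows in part from the choice. The share does not bear on the differences between groups. RefSeq windows of 250 bases before the transcription start (build GRCm38.p6) were present for 31 of the 35 members, and Epas1, Ndrg1, Slc2a3 and Bnip3l had none in the table used here. A core, ACGTG or GCGTG on either strand, lay in a window of 28 of the 31 genes (90.3%), against 41.5% of the 27025 genes with a window. A gene with several windows, as 10 members had, was counted if any of them held a core. All genes together had 32851 windows. At least 2 cores lay in a single window for 64.5% of members and 15.2% of all genes. By each gene's window richest in G and C, the members had a median of 64% against 52.8% for all genes. Among genes whose richest window had at least 60% G and C, a core lay in some window of 21 of 21 members and of 67.9% of 8115 genes. ACGTG is also the inner part of CACGTG, the E-box bound by other factors, which was present for 6 members (19.4%) and 6.86% of all genes. The windows of Tpi1, Eno2 and Gpi1 held no core. A match describes letters in a window, not binding.

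The stretches that follow show the spacing of the cores, written 5′ to 3′ in the direction of the gene, with every core and its reverse complement (CACGT or CACGC) in capitals. Slc2a1 (chr4:119108664-119108733, plus strand), Slc16a3 (chr11:120949020-120949066, plus) and Pgk1 (chrX:106186930-106186993, plus) carry paired cores. Bnip3 (chr7:138909517-138909643, minus) carries 4, and Egln3 (chr12:54204079-54204123, minus), the member with the largest difference between GM-BMDC and GM-BMM, carries 1 in its window. Aldoc (chr11:78323003-78323047, plus) and Pfkp (chr13:6648772-6648927, minus) are shown because they hold cores too and did not have their highest signals in GM-BMM alone.
Slc2a1: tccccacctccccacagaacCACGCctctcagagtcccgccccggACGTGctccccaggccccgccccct
Slc16a3: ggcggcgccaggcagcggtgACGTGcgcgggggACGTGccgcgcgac
Pgk1: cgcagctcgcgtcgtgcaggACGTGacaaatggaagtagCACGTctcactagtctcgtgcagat
Bnip3: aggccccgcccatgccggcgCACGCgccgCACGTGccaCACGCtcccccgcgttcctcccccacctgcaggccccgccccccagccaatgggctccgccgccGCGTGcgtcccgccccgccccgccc
Egln3: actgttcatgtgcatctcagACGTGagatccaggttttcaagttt
Aldoc: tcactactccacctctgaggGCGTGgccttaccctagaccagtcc
Pfkp: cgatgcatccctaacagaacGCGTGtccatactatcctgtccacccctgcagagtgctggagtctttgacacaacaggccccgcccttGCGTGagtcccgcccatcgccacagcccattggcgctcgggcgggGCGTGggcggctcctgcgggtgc

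Glucose enters through Slc2a1 (GLUT1), the glucose transporter of most growing cells. Slc2a1 measured 11.27 and 11.13 in the GM-BMM arrays, 10.23 and 10.35 in GM-BMDC, and 10.03 and 10.01 in M-BMM. Both GM-BMM arrays stood clear of the rest, and M-BMM was lowest. It was 2.26-fold higher in GM-BMM than in M-BMM (log2 difference 1.18 ± 0.11 SE, adjusted p = 0.00128) and 1.88-fold lower in GM-BMDC than in GM-BMM (-0.91 ± 0.11, adjusted p = 0.00306). GM-BMDC and M-BMM differed by 0.27 ± 0.11, which did not pass (adjusted p = 0.172).

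Slc16a3 (MCT4), the lactate exporter of glycolytic cells, had its groups in the same order. Its signals were 9.50 and 9.71 in GM-BMM, 8.80 and 8.91 in GM-BMDC, and 8.25 and 8.13 in M-BMM, with no overlap between any groups. It was 2.66-fold higher in GM-BMM than in M-BMM (1.41 ± 0.12, adjusted p = 0.000867), 1.68-fold lower in GM-BMDC than in GM-BMM (-0.74 ± 0.12, adjusted p = 0.00998), and 1.59-fold higher in GM-BMDC than in M-BMM (0.67 ± 0.12, adjusted p = 0.0103).

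The other transporters did not pass in any comparison. Slc16a1 (MCT1), which carries lactate in either direction, was 0.58 ± 0.14 higher in GM-BMM than in M-BMM (adjusted p = 0.0637). Slc2a3 (GLUT3), a glucose transporter of high affinity, had a log2 difference of -0.58 ± 0.16 between GM-BMM and M-BMM (adjusted p = 0.0897).

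Hexokinases phosphorylate glucose and so trap it in the cell. Hk2, the hexokinase induced by growth signals and hypoxia, measured 7.50 and 7.79 in GM-BMDC, 8.72 and 9.12 in GM-BMM, and 8.64 and 8.52 in M-BMM. GM-BMDC lay lowest, and the macrophage groups were close. The difference from GM-BMM was -1.28 ± 0.17 (2.42-fold, adjusted p = 0.00409) and that from M-BMM -0.93 ± 0.17 (1.91-fold, adjusted p = 0.00959), while GM-BMM and M-BMM differed by 0.34 ± 0.17 (adjusted p = 0.342).

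Hk3, the hexokinase typical of myeloid cells, measured 7.58 and 7.76 in GM-BMDC, 8.61 and 9.0 in GM-BMM, and 9.03 and 9.0 in M-BMM. It was likewise low in the dendritic cells, but M-BMM was not below GM-BMM. It was 2.19-fold lower in GM-BMDC than in GM-BMM (-1.13 ± 0.15, adjusted p = 0.00414) and 2.53-fold lower than in M-BMM (-1.34 ± 0.15, adjusted p = 0.00118).

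Hk1, the hexokinase found in most tissues, depended on the probe set. The one chosen by the rule measured 12.53 in both GM-BMDC arrays, 12.40 and 12.11 in GM-BMM, and 12.48 and 12.51 in M-BMM, and did not pass in any comparison (adjusted p 0.253 to 0.903). The other probe set annotated to Hk1 alone measured 7.62 and 7.84 in GM-BMDC, 8.75 and 8.73 in GM-BMM, and 8.04 and 8.05 in M-BMM, and both GM-BMM arrays lay above the rest. With it, Hk1 was lower in GM-BMDC than in GM-BMM (-1.01 ± 0.12, adjusted p = 0.00229) and higher in GM-BMM than in M-BMM (0.70 ± 0.12, adjusted p = 0.0149), the opposite of the rule's signs. A further 16 probe sets are annotated both to Hk1 and to Rpl17, a ribosomal protein gene, and their differences were 0.39 to 0.63 between GM-BMDC and GM-BMM and -0.46 to -0.35 between GM-BMM and M-BMM. The annotation of the rule's probe set names no curated RefSeq transcript (NM accession), that of the other does. Which transcript the rule's probe set measured was not tested, so no direction is given here for Hk1.

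**Figure D2:**
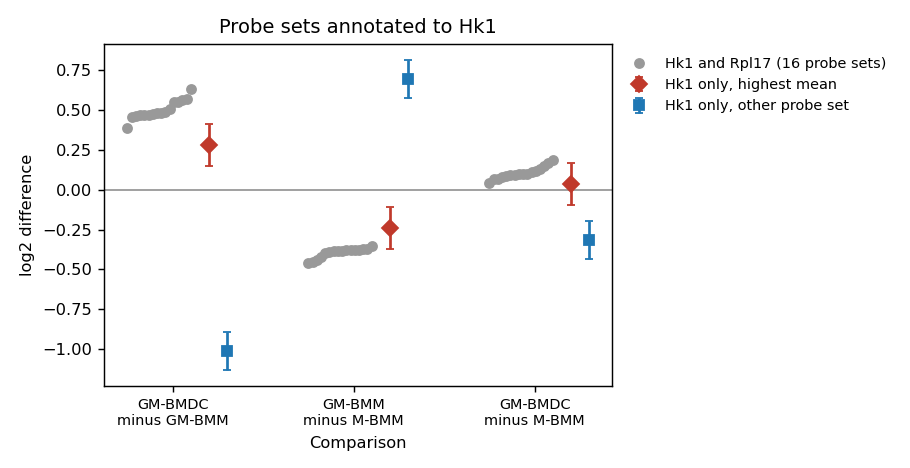
Log2 differences of the probe sets annotated to Hk1 in the 3 comparisons. Grey points are the 16 probe sets annotated to Hk1 and Rpl17, the red diamond is the probe set with the highest mean and the blue square the other one annotated to Hk1 alone (bars, limma standard errors). The red diamond lies on the side of the grey points in the first 2 comparisons, and the blue square on the opposite side.

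Phosphofructokinase makes fructose 1,6-bisphosphate and commits sugar to glycolysis, and its 3 isoforms differed in pattern. Pfkl, the liver type, measured 7.56 and 7.86 in GM-BMDC, 8.99 and 9.56 in GM-BMM, and 8.53 and 8.34 in M-BMM. The groups did not overlap, and the GM-BMM arrays were highest though far apart. It was 2.96-fold lower in GM-BMDC than in GM-BMM (-1.57 ± 0.20, adjusted p = 0.00358), the largest difference among the 14 measured enzymes of the set in this comparison. The difference between GM-BMM and M-BMM, 0.84 ± 0.20, did not pass (adjusted p = 0.0584). Pfkm, the muscle type, was 1.61-fold lower in GM-BMDC than in GM-BMM (-0.69 ± 0.16, adjusted p = 0.0327) and 1.57-fold lower than in M-BMM (-0.65 ± 0.16, adjusted p = 0.0279).

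Pfkp, the platelet type, ran the other way. It measured 10.31 and 9.94 in GM-BMDC, 9.39 and 9.51 in GM-BMM, and 8.51 and 8.37 in M-BMM, so that the groups formed 3 steps without overlap. GM-BMDC was 3.22-fold above M-BMM (1.69 ± 0.15, adjusted p = 0.000434), GM-BMM 2.01-fold above M-BMM (1.01 ± 0.15, adjusted p = 0.00852), and GM-BMDC 1.60-fold above GM-BMM (0.68 ± 0.15, adjusted p = 0.0293). The last difference was 0.44 without both GM-CSF arrays numbered 1 and did not pass there (adjusted p = 0.186). The enzymes Pfkfb3 and Pfkfb4, which make and remove the activator fructose 2,6-bisphosphate, did not pass in any comparison. Pfkfb3 varied more between the GM-BMM arrays (8.89 and 9.64) than between the group means.

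Aldolase splits the 6-carbon sugar, and its isoform Aldoc separated the GM-CSF groups from M-BMM more than any other glycolytic gene of the set. Aldoc measured 9.36 and 9.83 in GM-BMDC, 9.81 and 9.87 in GM-BMM, and 6.58 and 6.35 in M-BMM. All 4 GM-CSF arrays lay far above both M-CSF arrays, and the GM-CSF groups overlapped. It was 10.4-fold higher in GM-BMM than in M-BMM (3.37 ± 0.17, adjusted p = 7.83e-05) and 8.74-fold higher in GM-BMDC than in M-BMM (3.13 ± 0.17, adjusted p = 6.45e-05), while GM-BMDC and GM-BMM differed by -0.25 ± 0.17 (adjusted p = 0.482). Aldoa, the common isoform, was high in all arrays (11.99 to 12.42) and did not pass in any comparison.

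The steps from triose phosphate to pyruvate had smaller differences, all with GM-BMM highest except for Eno2. Tpi1, which interconverts the triose phosphates, was 1.72-fold lower in GM-BMDC than in GM-BMM (-0.78 ± 0.13, adjusted p = 0.0101) and 1.55-fold higher in GM-BMM than in M-BMM (0.63 ± 0.13, adjusted p = 0.0326). Pgk1, which makes the first ATP of the pathway, was 1.52-fold lower (-0.61 ± 0.12, adjusted p = 0.0218) and 1.70-fold higher (0.76 ± 0.12, adjusted p = 0.0122) in the same comparisons. Pgam1, the phosphoglycerate mutase, and Pkm, the pyruvate kinase, were 1.48-fold (-0.56 ± 0.12, adjusted p = 0.0229) and 1.66-fold lower (-0.73 ± 0.14, adjusted p = 0.0186) in GM-BMDC than in GM-BMM and did not pass between GM-BMM and M-BMM. Eno2, the neuronal enolase, did not pass in any comparison. Pgk1 and Pgam1 have near-identical copies in the genome, so their signals may include those copies.

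Ldha, which reduces pyruvate to lactate, is a standard readout of HIF activity. It measured 11.92 and 12.26 in GM-BMDC, 12.33 and 12.49 in GM-BMM, and 12.13 and 11.98 in M-BMM. The GM-BMM arrays were the highest, but the groups lay about as far apart as the GM-BMDC arrays did from each other. It differed by -0.32 ± 0.15 between GM-BMDC and GM-BMM (adjusted p = 0.254) and by 0.35 ± 0.15 between GM-BMM and M-BMM (adjusted p = 0.25), and neither passed.

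**Figure D3:**
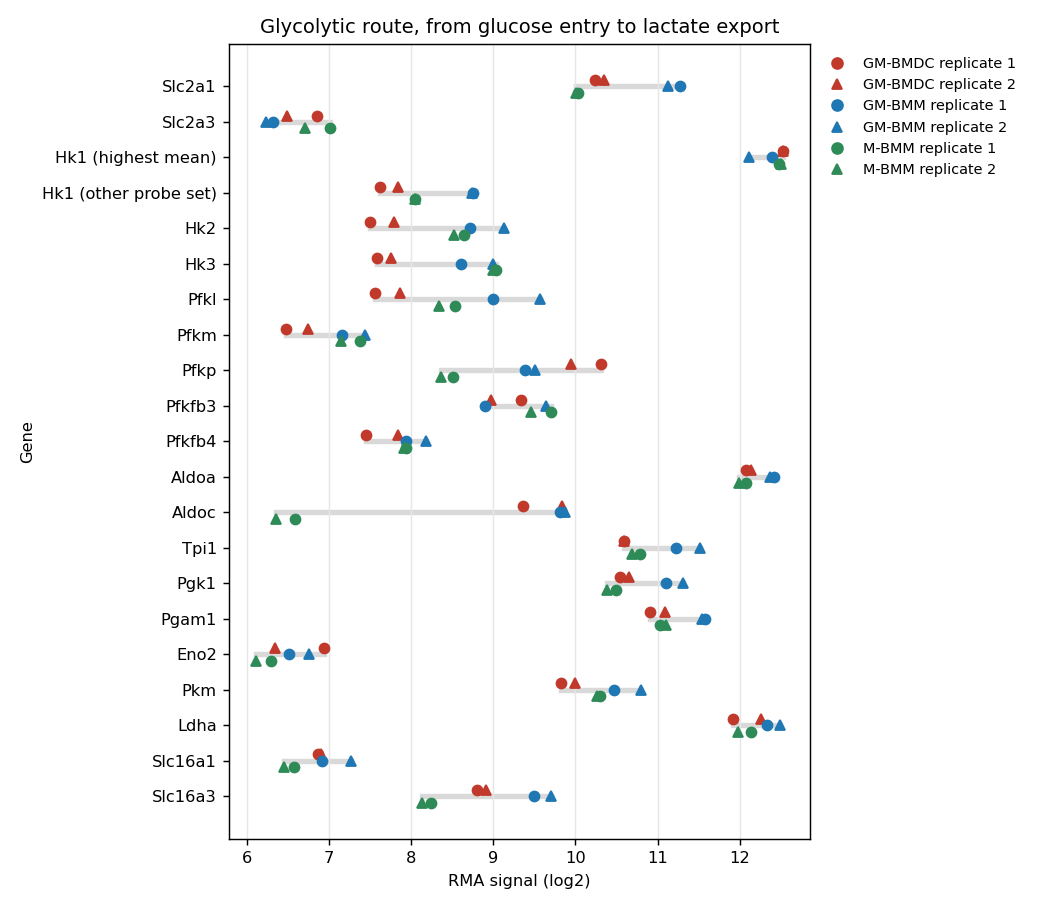
RMA log2 signal of the glycolytic route in each of the 6 arrays, ordered from glucose entry to lactate export. Colour gives the group, circles and triangles the replicate, grey bars the range, and Hk1 is drawn for both of its probe sets. The blue GM-BMM points are rightmost for 12 genes of the rule, whereas Pfkp is highest in GM-BMDC and Aldoc is low in M-BMM alone. Signals of different genes cannot be set against each other.

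Hif1a encodes the HIF alpha subunit of most cells. It measured 10.65 and 10.81 in GM-BMDC, 11.73 and 11.61 in GM-BMM, and 10.74 and 10.44 in M-BMM. GM-BMM stood clear, and the other groups overlapped. Hif1a was 1.92-fold lower in GM-BMDC than in GM-BMM (-0.94 ± 0.14, adjusted p = 0.0061) and 2.11-fold higher in GM-BMM than in M-BMM (1.08 ± 0.14, adjusted p = 0.00489), and the latter did not pass without M-BMM replicate 2 (adjusted p = 0.059). Epas1, which encodes the HIF-2 alpha subunit, measured 5.56 and 5.84 in GM-BMDC, 6.26 and 5.90 in GM-BMM, and 5.73 and 5.74 in M-BMM. Its GM-BMM arrays were highest by a narrow margin, and the differences of -0.38 ± 0.16 (adjusted p = 0.197) and 0.35 (adjusted p = 0.291) did not pass.

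The prolyl hydroxylases act on HIF and are themselves HIF targets. Egln3 (PHD3) measured 9.88 and 9.47 in GM-BMM, 7.19 and 6.95 in M-BMM, and 6.17 and 6.05 in GM-BMDC. The groups were far apart, with GM-BMM on top. It was 11.8-fold lower in GM-BMDC than in GM-BMM (-3.56 ± 0.16, adjusted p = 5.59e-05), 6.07-fold higher in GM-BMM than in M-BMM (2.60 ± 0.16, adjusted p = 0.000195) and 1.95-fold lower in GM-BMDC than in M-BMM (-0.96 ± 0.16, adjusted p = 0.00719). Egln1 (PHD2), the main oxygen-dependent regulator of HIF, was also highest in GM-BMM, with much smaller differences (-0.25 ± 0.12, adjusted p = 0.283, and 0.49 ± 0.12, adjusted p = 0.068) and did not pass.

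Vegfa, the blood vessel growth factor, measured 10.32 and 10.44 in GM-BMM, 9.24 and 9.14 in GM-BMDC, and 8.98 and 8.68 in M-BMM. The order was that of Slc2a1 and Slc16a3. Vegfa was 2.93-fold higher in GM-BMM than in M-BMM (1.55 ± 0.14, adjusted p = 0.000867) and 2.28-fold lower in GM-BMDC than in GM-BMM (-1.19 ± 0.14, adjusted p = 0.00214).

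Bnip3 promotes the removal of mitochondria. It measured 9.72 and 9.41 in GM-BMM, 8.89 and 8.60 in M-BMM, and 7.97 and 8.32 in GM-BMDC, in 3 steps without overlap. It was 2.67-fold lower in GM-BMDC than in GM-BMM (-1.42 ± 0.18, adjusted p = 0.00302) and 1.77-fold higher in GM-BMM than in M-BMM (0.82 ± 0.18, adjusted p = 0.0375). The other probe set annotated to Bnip3 alone had smaller differences of the same sign. In a limma fit of all probe sets they were -0.93 ± 0.14 (adjusted p = 0.0287) and 0.48 ± 0.14 (adjusted p = 0.167). The rule's probe set did not pass between GM-BMM and M-BMM in that fit either (adjusted p = 0.103). Bnip3l (NIX), a relative of Bnip3, instead separated both GM-CSF groups from M-BMM. It was 1.65-fold higher in GM-BMM than in M-BMM (0.72 ± 0.14, adjusted p = 0.0295) and 1.52-fold higher in GM-BMDC than in M-BMM (0.60 ± 0.14, adjusted p = 0.0287).

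P4ha1, a collagen prolyl hydroxylase subunit, measured 8.37 and 8.73 in GM-BMDC, 9.80 and 9.81 in GM-BMM, and 9.36 and 9.25 in M-BMM. Both macrophage groups lay above the dendritic cells. It was 2.38-fold lower in GM-BMDC than in GM-BMM (-1.25 ± 0.14, adjusted p = 0.00205) and 1.69-fold lower than in M-BMM (-0.76 ± 0.14, adjusted p = 0.0107). Pdk1, which keeps pyruvate out of the mitochondria by inhibiting pyruvate dehydrogenase, was -0.72 ± 0.20 between GM-BMDC and GM-BMM and did not pass (adjusted p = 0.0704). Ankrd37, a small HIF target, did not pass in any comparison.

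Adm, P4ha2 and Ndrg1 departed from the rest in that both M-BMM arrays were above all GM-CSF arrays, an order held by 16.5% of all genes. Ndrg1, a stress- and differentiation-responsive gene, measured 12.53 and 12.55 in M-BMM, 9.89 and 9.38 in GM-BMDC, and 8.58 and 9.94 in GM-BMM. M-BMM stood far above, and the GM-BMM arrays were themselves far apart. It was 9.67-fold lower in GM-BMM than in M-BMM (-3.27 ± 0.39, adjusted p = 0.00349) and 7.46-fold lower in GM-BMDC than in M-BMM (-2.90 ± 0.39, adjusted p = 0.0026). Adm, which encodes the peptide adrenomedullin, was 1.84-fold lower in GM-BMM than in M-BMM (-0.88 ± 0.15, adjusted p = 0.0145), and P4ha2 1.39-fold lower in GM-BMDC than in M-BMM (-0.48 ± 0.11, adjusted p = 0.0273). Both had low signals beside the array medians of 6.18 to 6.28. Adm measured 5.26 to 5.52 in the GM-CSF arrays and 6.41 and 6.11 in M-BMM, and P4ha2 lay between 5.32 and 5.92 in all arrays.

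**Figure D4:**
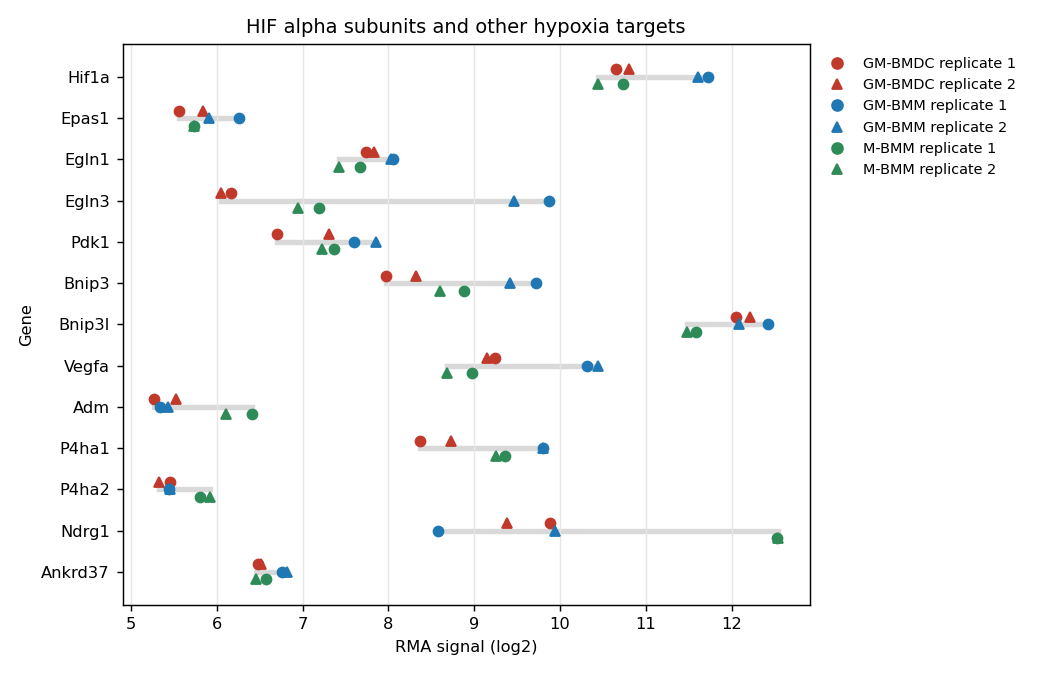
RMA log2 signal of the HIF alpha subunits and the other hypoxia targets in each of the 6 arrays, with colour for the group, circles and triangles for the replicate, and grey bars for the range. GM-BMM (blue) is rightmost for Hif1a, Epas1 and 7 of the 11 targets, whereas M-BMM (green) is rightmost for Adm, P4ha2 and Ndrg1.

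Set beside each other, the glycolytic enzymes and the other hypoxia targets both had their highest medians in the GM-BMM arrays. The median deviation from each gene's 6-array mean was 0.22 and 0.44 in the GM-BMM arrays for the 14 enzymes and 0.26 and 0.24 for the 11 hypoxia targets. In GM-BMDC it was -0.28 and -0.14 for the enzymes and -0.41 and -0.24 for the hypoxia targets. In M-BMM it was -0.08 and -0.16 for the enzymes and 0.02 and -0.14 for the hypoxia targets. The transporters alone were lowest in M-BMM (-0.37 and -0.43, against -0.02 and -0.04 in GM-BMDC). The median over all genes stayed between -0.03 and 0.03 in each array. Among the called members, 8 of 14 enzymes fell in GM-BMDC against GM-BMM and 4 of 14 rose in GM-BMM against M-BMM, beside 4 of 11 and 4 of 11 of the hypoxia targets, where 5.74% of all genes fell in the first comparison and 3.62% rose in the second. The difference between the gene groups was not tested.

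**Figure D5:**
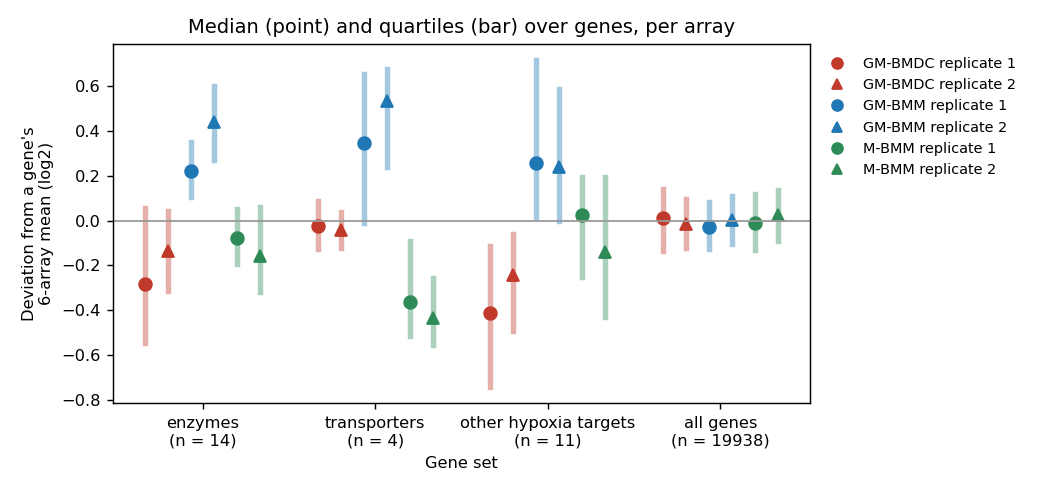
Median (points) and quartiles (bars) over genes of the deviation from each gene's 6-array mean, in log2, for the 14 enzymes, 4 transporters, 11 other hypoxia targets and all 19938 genes. Colour gives the group and shape the replicate. The blue GM-BMM medians lie between 0.22 and 0.53 in the 3 member groups, and all genes stay near 0.

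Markers of other cell types were read beside these results. Of 12 neutrophil markers, 2 (Csf3r and Mmp8) were lower in GM-BMDC than in GM-BMM, where 5.74% of all genes were lower. In GM-BMM against M-BMM, Mmp8 was higher and Mpo lower, where 3.62% and 2.57% of all genes were. Csf3r had its highest mean in M-BMM (10.55, against 9.69 in GM-BMM and 6.69 in GM-BMDC). The summed signal of the 12 markers was 12.32 and 13.27 in GM-BMM, 10.83 and 11.57 in GM-BMDC, and 11.31 and 11.50 in M-BMM. Most of the GM-BMM sum was Mmp8, a collagenase of neutrophil granules. Without Mmp8 the 11 remaining markers summed to 10.66 and 11.09 in GM-BMM, 9.73 and 9.86 in GM-BMDC, and 11.13 and 11.27 in M-BMM, so that GM-BMM was no longer highest. Cxcr2 was below 5.04 in every array. Of 8 fibroblast markers, Dcn alone was called in the comparisons with GM-BMM: it was 3.17-fold lower in GM-BMDC (-1.67 ± 0.23, adjusted p = 0.00499) and 2.09-fold lower in M-BMM (GM-BMM minus M-BMM 1.07 ± 0.23, adjusted p = 0.041). The summed fibroblast signal was 9.38 and 9.60 in GM-BMM, 9.16 and 9.25 in GM-BMDC, and 9.26 and 9.33 in M-BMM, and Lum was below 5.04 in every array. Of 7 B lymphocyte markers, Cd79a, Ms4a1 and Ebf1 were higher in GM-BMDC than in GM-BMM, where 4.69% of all genes were higher. The summed signal was 8.98 and 9.79 in GM-BMDC, 8.73 and 8.90 in GM-BMM, and 10.43 and 10.49 in M-BMM. Most of the M-BMM sum was Cd79b, with a mean of 10.18 there, 7.82 in GM-BMM and 7.91 in GM-BMDC. In M-BMM, Cd79a (4.61) and Ms4a1 (5.16) were low. The part of such cells in the results was not tested, nor was that of the macrophage and dendritic cell marker levels. Cell cycle genes had 0 calls of 19 in either comparison with GM-BMM by limma, with 1 under an unadjusted p of 0.05 against GM-BMDC and 2 against M-BMM.

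Genes outside the set were counted in the same fits, from lists that were also chosen with earlier results of these data known. Of 28 further hypoxia targets, 9 fell and 1 rose in GM-BMDC against GM-BMM, and 7 rose and none fell in GM-BMM against M-BMM. Over all genes, 5.74% fell and 4.69% rose in the first comparison, and 3.62% rose and 2.57% fell in the second. The largest in the first were Hmox1, the heme-degrading enzyme (-1.62 ± 0.12, adjusted p = 0.000391), Ero1a, an oxidase of protein folding (-1.48 ± 0.21), and Plod1, a collagen lysyl hydroxylase (-1.33 ± 0.21). In the second they were Bhlhe40, a transcriptional repressor (9.53-fold, 3.25 ± 0.20), Nos2, the inducible nitric oxide synthase (8.20-fold, 3.04 ± 0.42), and Ak4, a mitochondrial adenylate kinase (3.03-fold, 1.60 ± 0.14). Bhlhe40 was also the gene that rose in GM-BMDC against GM-BMM (1.32 ± 0.20). Against M-BMM, 4 of the 28 were higher in GM-BMDC and 6 were lower, where 7.76% and 8.9% of all genes were. The largest were Bhlhe40 (23.8-fold higher, 4.57 ± 0.20), Nos2 (9.72-fold higher, 3.28 ± 0.42) and Plod1 (2.99-fold lower, -1.58 ± 0.21).

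Among the neighbouring metabolic pathways, glycogen metabolism had the largest share of calls between GM-BMDC and GM-BMM: 5 of 10 genes fell in GM-BMDC and 1 rose, where 10.4% of all genes passed. Gbe1, the branching enzyme, was 3.0-fold lower (-1.58 ± 0.16, adjusted p = 0.00123), Gys1, the muscle-type glycogen synthase, 2.18-fold lower (-1.13 ± 0.11), and Pygl, the liver-type phosphorylase, 2.12-fold lower (-1.08 ± 0.27). Between GM-BMM and M-BMM, 1 of the 10 was higher and 1 was lower in GM-BMM, where 3.62% and 2.57% of all genes were. Gys1 was 2.04-fold higher (1.03 ± 0.11, adjusted p = 0.0023) and Pygb 1.69-fold lower (-0.76 ± 0.16, adjusted p = 0.0395). Against M-BMM, 4 of the 10 were lower in GM-BMDC and 1 was higher, where 8.9% and 7.76% of all genes were.

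Other glycolysis genes, mostly isoforms of other tissues, had 2 that fell and 1 that rose of 17 in GM-BMDC against GM-BMM (17.6%, against 10.4% of all genes), and 2 that rose in GM-BMM against M-BMM (11.8%, against 6.19%). Eno3, the muscle enolase, was 4.05-fold higher in GM-BMDC than in GM-BMM (2.02 ± 0.23), while Ldhb, the other lactate dehydrogenase subunit, was 1.94-fold lower (-0.95 ± 0.15). In the pentose phosphate pathway 2 of 7 fell in GM-BMDC against GM-BMM (H6pd and Rpe), and Pgd was 2.05-fold higher in GM-BMM than in M-BMM. By limma, 0 of 11 genes of pyruvate entry to the mitochondria passed between GM-BMDC and GM-BMM (1 under an unadjusted p of 0.05) or between GM-BMM and M-BMM (3), and 0 of 7 gluconeogenesis genes did (1 and 2). Of 15 citric acid cycle genes Sdhb and Suclg2 fell in GM-BMDC against GM-BMM.

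Among 16 genes that control the HIF pathway, 3 rose in GM-BMDC against GM-BMM and none fell (18.8%, against 10.4% of all genes in either direction). Vhl, whose product marks hydroxylated HIF for degradation, was 2.05-fold higher in GM-BMDC than in GM-BMM (1.04 ± 0.12, adjusted p = 0.00189) and 2.87-fold higher than in M-BMM (1.52 ± 0.12). Rptor and Mtor, parts of the growth-control kinase complex mTORC1, were 2.02-fold (1.01 ± 0.18) and 1.49-fold (0.58 ± 0.12) higher in GM-BMDC than in GM-BMM. Between GM-BMM and M-BMM the single call was Hif3a, a HIF alpha relative (-0.52 ± 0.11, adjusted p = 0.0385).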

How the data were processed

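Total RNA of 6 sorted samples was hybridised to 1 Affymetrix array each. The deposited values are log2 signals that the authors made with Affymetrix Expression Console 1.1 and RMA, per the submitters' processing notes. RMA corrects background, equalises the arrays' distributions and summarises probes, so a shift of all genes would be hidden. The table held 35556 probe sets: 21789 with 1 annotated gene, 1621 with several and 12146 with none, the last 2 kinds left out. Of 19938 genes, 999 had several probe sets, and the one with the highest mean was kept. The genome build behind the probe annotation is not given in the sources used here.

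Groups came from the sample titles. One limma 3.58.1 fit (R 4.3.3) of all 6 arrays with a mean per group gave 3 comparisons, with two-sided moderated tests and Benjamini-Hochberg adjustment over 19938 genes at 0.05, with no filter and no pseudocount. Residual degrees of freedom were 3 and prior degrees 4.34, and the median standard error was 0.132. Errors after ± are standard errors. Tables and promoters were handled in Python 3.11.15 (pandas 2.3.3, NumPy 2.4.6), and plots drawn with matplotlib 3.10.9. Promoter windows come from RefSeq, GRCm38.p6.

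The members and the other gene lists were chosen with earlier results of these data known. Values in every array are given for members past the threshold with a log2 difference of at least 1 in size in some comparison, plus Hif1a, Epas1 and Ldha, and both Hk1 probe sets, which were singled out after their values were seen. From other lists, up to 3 called genes with the largest difference per comparison are named. Alternatives tried were single arrays or pairs of arrays left out, a replicate block, a Y-linked covariate, other moderation, filters, scaling, probe set choices and a fold threshold of 1.2. Arrays have no read depth, so the number of arrays limits the precision.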

Additional observations from a re-analysis of the deposited data

How the results depend on the processing

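Of the called members, the sign of the difference was kept under all alternatives run except for Hk1, which was not called by the rule's probe set and turned with the probe set that has a RefSeq accession: -1.01 between GM-BMDC and GM-BMM and 0.70 between GM-BMM and M-BMM. Leaving out single arrays, where the group with 1 array left is assumed to vary like the others, the glycolytic route had 4 to 11, 3 to 8 and 3 to 7 calls in GM-BMDC against GM-BMM, GM-BMM against M-BMM and GM-BMDC against M-BMM, the other hypoxia targets 4 to 5, 2 to 6 and 1 to 6, and all genes 1102 to 2055, 319 to 1347 and 1288 to 3412. Without moderation the route and the hypoxia targets had 0 calls in each comparison and all genes 0, 8 and 17, while 3686, 3075 and 4628 genes were under an unadjusted p of 0.05. With only the 2 groups compared, GM-BMDC against GM-BMM gave 6 route calls and 1207 genes. With all probe sets tested, all genes called were 1019, 615 and 2030, the route had 6 calls in GM-BMDC against GM-BMM, and the hypoxia targets had 3 in GM-BMM against M-BMM. With the fold threshold, all genes called were 1032, 639 and 1771, the route had 5 in the first comparison, and the hypoxia targets 3 in each of the others. Without both GM-CSF arrays numbered 2, with the spread from M-BMM alone, 2048 genes were called between GM-BMM and M-BMM. With the Y-linked covariate, the hypoxia targets had 3 calls in each comparison with M-BMM, and 2114 genes were called between GM-BMDC and M-BMM.

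The replicate numbers were not shown to pair the samples: deviations of same-numbered arrays correlated at 0.02 (GM-BMDC with GM-BMM), -0.13 (GM-BMDC with M-BMM) and 0.03 (GM-BMM with M-BMM). With the replicate block, 1963, 1176 and 3060 genes were called, with 11, 7 and 7 of the route and 4, 5 and 6 of the hypoxia targets. With the numbers of M-BMM crossed, chosen after seeing the data, 2002, 1121 and 3155 were called. The number of arrays, 2 a group, limits what differences could be called.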
